A study of Mus musculus with 6 samples.

Results

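The Schlafen (Slfn) genes were described in RAW 264.7 cells, a mouse macrophage line, after 1 h with LPS and LPS-binding protein. All probes whose single annotated gene symbol begins with Slfn were taken, which gave 5 probes for 5 genes, Slfn1, Slfn2, Slfn3, Slfn4 and the noncoding Slfn5os, out of 10698 genes with a probe of 1 symbol. The family was chosen on the measured treated over untreated log2 ratios of these same arrays, in which Slfn2 stood out, so the ratios of its members are a description here and carry no test. The study hybridised RNA of untreated cells and of cells given LPS (100 ng/ml), a component of the outer membrane of Gram-negative bacteria, plus LBP (100 pM), a serum protein that hands LPS to its receptor. Each of 6 arrays held both RNAs, and the treated RNA carried the dye Cy5 on 3 arrays (Cy5 arrays below) and the dye Cy3 on the other 3 (Cy3 arrays). Both orientations are numbered as sets 1 to 3. No genetic change is named for either group, and the series title spells the line RAW 264.4 where the sample titles have RAW 264.7. Whether the sets are separate cultures is not in the labels, so spreads and p-values cover these samples alone, which may be technical repeats.

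Schlafen proteins are a family of mammalian growth regulators, first described in developing thymocytes and named after the German word for sleep. They share a core domain that binds RNA, and several members act on transfer RNA. In mice the family is a run of neighbouring gene copies on chromosome 11. Slfn1 and Slfn2 are short members, Slfn3 and Slfn4 are of intermediate length, and longer members also carry a helicase-like domain. Slfn2 is needed for resting T cells and monocytes to stay quiescent and survive, and its protein shields transfer RNA from cleavage by angiogenin. Slfn4 is known as an interferon-induced gene of myeloid cells, and many Schlafen genes answer to type I interferon. Slfn5os is a long noncoding RNA gene on the opposite strand at Slfn5.

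The windows upstream of the 4 coding members are shown first, since these copies sit side by side in the genome but had different ratios. They were read from the RefSeq promoter table of mouse assembly GRCm38.p6, which held all 5 members, and all 4 lie on the plus strand. Each line gives the 100 bases before the annotated start, 5′ to 3′. Capitals mark the longest word that the 250 bases before the start of all 4 genes have in common, ACTTCCTGG, a GGGNNTTCC match in Slfn2, which has the letters of a short NF-kappaB site, and a TGANTCA match in Slfn4, which has the letters of an AP-1 site.
Slfn2 promoter, chr11:83065012-83065111: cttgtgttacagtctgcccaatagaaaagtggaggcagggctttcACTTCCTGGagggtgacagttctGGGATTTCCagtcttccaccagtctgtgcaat
Slfn3 promoter, chr11:83191230-83191329: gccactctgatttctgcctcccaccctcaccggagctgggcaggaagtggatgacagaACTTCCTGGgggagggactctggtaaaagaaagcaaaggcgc
Slfn4 promoter, chr11:83175086-83175185: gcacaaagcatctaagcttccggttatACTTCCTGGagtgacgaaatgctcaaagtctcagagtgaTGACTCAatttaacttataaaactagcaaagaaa
Slfn1 promoter, chr11:83116720-83116819: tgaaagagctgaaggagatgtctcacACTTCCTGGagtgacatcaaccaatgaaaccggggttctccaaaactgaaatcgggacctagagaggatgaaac

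The shared word of 9 letters began 55 bases before the start of Slfn2, 42 before that of Slfn3, 73 before that of Slfn4 and 74 before that of Slfn1. On either strand it occurred in 0.7% of 32851 promoter windows of 250 bases in the table. It was picked from these sequences, which are copies of one another by descent, so it has no test. It contains CTTCCT, the core letters of an ETS factor site (PU.1, the macrophage lineage factor, belongs to this family), which 29.5% of all windows held on either strand. GGGNNTTCC was found in 4.98% of windows, and among the 5 members in Slfn2 alone, as GGGATTTCC starting 32 bases before the start. TGANTCA was found in 6.75% of windows, and among the members in Slfn4 alone, as TGACTCA starting 34 bases before the start. Slfn4 was also the 1 member with TATAAA (12.4% of windows), starting 19 bases before the start. A looser NF-kappaB form, GGG and CC with any 5 bases between them, was held by 45.8% of windows and matched in Slfn1. The core of an interferon-stimulated response element, GAAA repeated after any 2 bases (2.98% of windows), matched in none of the 5. All motifs were searched on both strands. A match describes letters only, and no match means only that these letters are not in this window.

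All ratios below are log2 of treated over untreated RNA, so that 1 stands for a doubling, and the sign of the Cy3 arrays was turned. An exact 0 in the deposited table was taken as no measured ratio. The direction is likely rather than stated: the labels name the Cy5 sample the test on each array, and every sign would turn if Cy3 were the numerator. A ratio carries no level, so neither the abundance of a transcript nor the presence of a cell type's markers can be read from these values. In a bulk ratio, fewer cells of a kind and less RNA per cell cannot be told apart.

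Slfn2 was much the highest member. Its ratio on the Cy5 arrays was 1.61, 1.67 and 1.49 for sets 1, 2 and 3, and on the Cy3 arrays 1.65, 1.67 and 1.73. All 6 arrays were above 0, they lay between 1.49 and 1.73, and the values of the 2 orientations overlapped. The Cy5 array of set 3 was the lowest and the Cy3 array of the same set the highest. Averaged within sets, the ratio was 1.63, 1.67 and 1.61, a mean of 1.63 ± 0.03 (SD, n = 3 sets), or 3.11-fold more Slfn2 RNA in treated cells. The SD over the 6 single arrays was 0.08. Arrays of the same number did not deviate together, so the SD over sets can be too small as a measure of array spread.

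Slfn3, a relative studied mainly in T cells and gut epithelium, had a lower ratio than Slfn2. Its values were 0.38, 0.32 and 0.37 on the Cy5 arrays and 0.42, 0.43 and 0.44 on the Cy3 arrays, in the order of the sets. All 6 arrays were above 0, and each Cy3 array read higher than each Cy5 array. The mean was 0.39 ± 0.02 (SD, n = 3 sets), or 1.31-fold. The SD over single arrays was 0.05.

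Slfn4, known as an interferon-induced gene, was near 0 in one orientation and above it in the other. It gave 0.04, -0.06 and 0.08 for sets 1 to 3 on the Cy5 arrays, and on the Cy3 arrays 0.29, 0.22 and 0.16. The orientations did not overlap, and 5 of 6 arrays were above 0. The mean over sets was 0.12 ± 0.04 (SD, n = 3 sets), or 1.09-fold, while the SD over the 6 single arrays was 0.13, larger than the mean itself.

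Slfn1, a short member that holds back T cell growth when overproduced in the thymus, was measured on 5 arrays. Its ratio was 0.28, -0.10 and 0.46 on the Cy5 arrays of sets 1 to 3. On the Cy3 arrays it was -0.26 in set 1 and -0.51 in set 3, and set 2 was listed at 0. In sets 1 and 3 the sign therefore followed the dye: the deposited, unturned ratio was positive on all 4 of these arrays. Both sets averaged close to 0, at 0.01 and -0.03, with a mean of -0.0082 ± 0.02 (SD, n = 2 sets). The SD over the 5 single arrays was 0.40, so the small SD over sets does not show a precise ratio.

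Slfn5os was measured on 2 arrays only, both of them Cy5 arrays, at -0.0045 for set 1 and -0.23 for set 3. It was listed at 0 on the other 4, so no average over both orientations exists for it and its mean is not given.

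**Figure D1:**
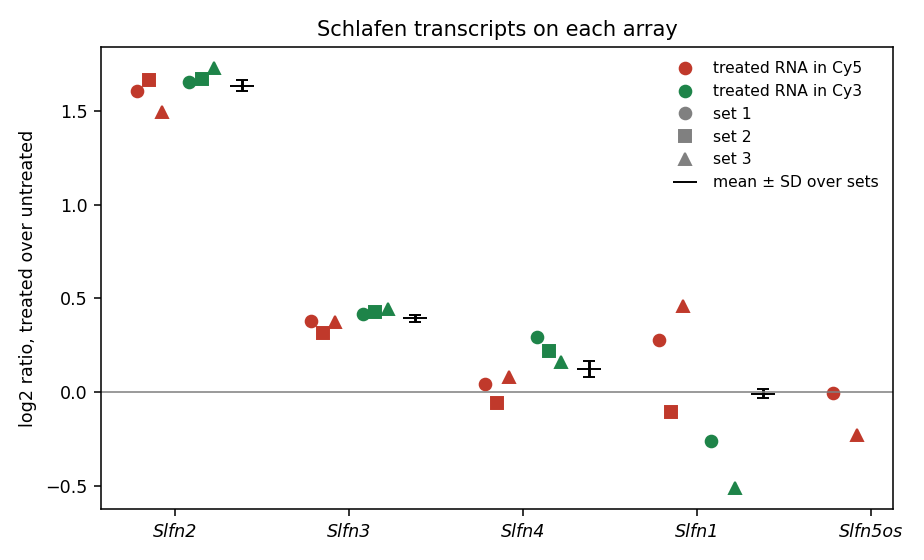
Log2 ratio of treated over untreated RNA (vertical axis) for each of the 5 Slfn genes on each array that measured it, by dye of the treated RNA (colour) and set (marker), with the mean ± SD over sets in black (3 sets, and 2 for Slfn1). Slfn2 lies between 1.49 and 1.73 on all 6 arrays and Slfn3 between 0.32 and 0.44, whereas Slfn1 spreads from -0.51 to 0.46.

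The order of the mean ratios was Slfn2, Slfn3, Slfn4 and Slfn1. On every array Slfn2 exceeded Slfn3, by between 1.12 and 1.35, with a median of 1.24. Slfn3 exceeded Slfn4 on 6 of 6 arrays as well, by between 0.12 and 0.37. Slfn4 and Slfn1 could not be ordered: their difference ran from -0.38 to 0.67 over the 5 arrays that measured both and was above 0 on 3 of them. These are differences of log2 ratios, not of transcript levels. The Slfn genes are close copies and the probe sequences were not used here, so how far a probe of one member also binds RNA of another was not tested.

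Among the 8331 genes with a ratio on all 6 arrays, 36 (0.432%) had a higher mean ratio than Slfn2. For Slfn3 that number was 248 (2.98%) and for Slfn4 it was 1145 (13.7%). The SD over sets of Slfn2 (0.03), Slfn3 (0.02) and Slfn4 (0.04) lay below the median SD of these genes, 0.07. These ranks place the chosen genes and support nothing further, since the ratios chose them.

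**Figure D2:**
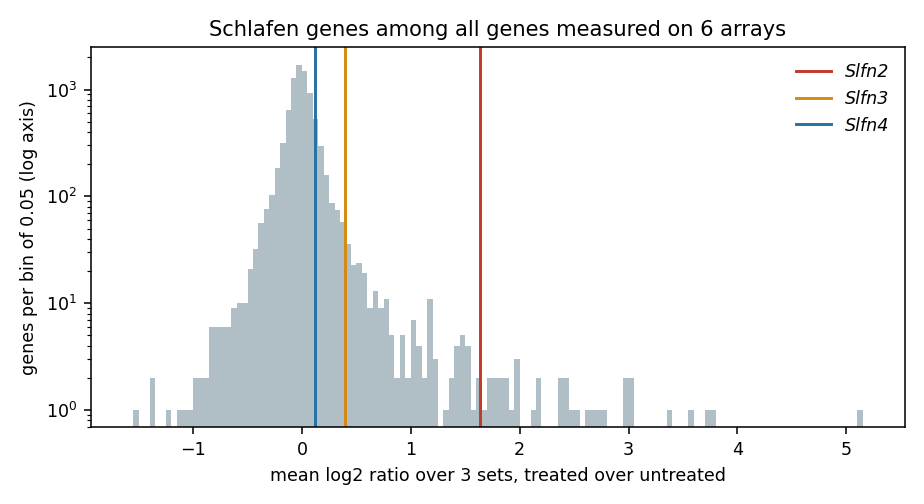
Number of genes (vertical log axis) by mean log2 ratio over 3 sets (horizontal axis, bins of 0.05) for the 8331 genes measured on 6 arrays, with lines at Slfn2, Slfn3 and Slfn4. Slfn2 at 1.63 stands in the thin right tail with 36 genes above it, and Slfn4 at 0.12 has 1145 genes above it.

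The dye orientation gave a measure that was independent of the treatment contrast. The average of both unturned arrays of a set cancels the treatment and holds the shared dye effect, positive where Cy5 read higher. It was -0.05 ± 0.06 (SD, n = 3 sets) for Slfn2, -0.04 ± 0.02 for Slfn3 and -0.10 ± 0.05 for Slfn4. None of these 3 passed the test (limma, Benjamini-Hochberg over 11442 probes, adjusted p = 0.443, 0.446 and 0.173). In that fit 6 probes passed, which is 0.0524% of those tested, and 3182 (27.8%) had an unadjusted p under 0.05. For Slfn4 the dye part was nearly as large as its treatment ratio (0.12), and its unadjusted p was 0.0452. For Slfn1 the dye part was 0.27 in set 1 and 0.49 in set 3, a mean of 0.38 ± 0.15 (SD, n = 2 sets), against a treatment part near 0. It could be tested only with partly measured probes included, a fit added after the data were seen, where it did not pass (limma, adjusted p = 0.157, unadjusted p = 0.017, 11 of 13811 probes called). A p that misses the threshold does not show that the dyes read alike.

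**Figure D3:**
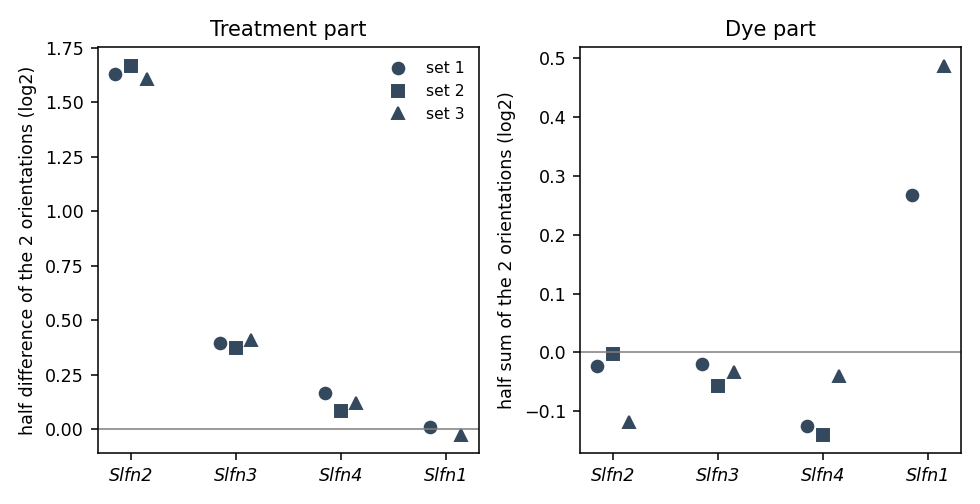
Left, the treatment part of each set (log2, mean of both turned arrays); right, the dye part (log2, mean of both unturned arrays, positive where Cy5 read higher), for 4 Slfn genes with 1 marker per set. Slfn2 has a treatment part between 1.61 and 1.67 and a dye part between -0.12 and -0.0023, while Slfn1 has a dye part of 0.27 and 0.49 with a treatment part of 0.01 and -0.03.

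The Slfn genes form an unbroken block in the RefSeq gene order of GRCm38.p6, in the sequence Slfn5os, Slfn5, Slfn9, Slfn8, Slfn10-ps, Slfn2, Slfn1, Slfn4, Slfn3 and Slfn14, with 0 other protein-coding genes inside it. Slfn2, the member of largest mean ratio, and Slfn1, with a mean near 0 over 2 sets, are direct neighbours there. Slfn5, Slfn8, Slfn9, Slfn10-ps and Slfn14 were not analysed here. Of the 8 protein-coding genes on either side, 6 were measured on all arrays, and 0 of these 6 rose or fell (limma, adjusted p under 0.05 over 8331 genes). Their mean ratios ran from -0.05 to 0.12, with a median of 0.04. Over all genes 6.96% were called higher and 6.21% lower, so 0 of 6 is a count that says little. The measured neighbours with the largest ratios were the zinc finger protein gene Zfp830, at 0.12 ± 0.12 (SD, n = 3 sets, limma, adjusted p = 0.241), and the DNA ligase gene Lig3, at 0.10 ± 0.02 (adjusted p = 0.167). Both come from the side of the block where Slfn5os lies. On the Slfn14 side the adaptor subunit gene Ap2b1 was at 0.09 and the RNA-binding protein gene Taf15 at -0.0095.

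**Figure D4:**
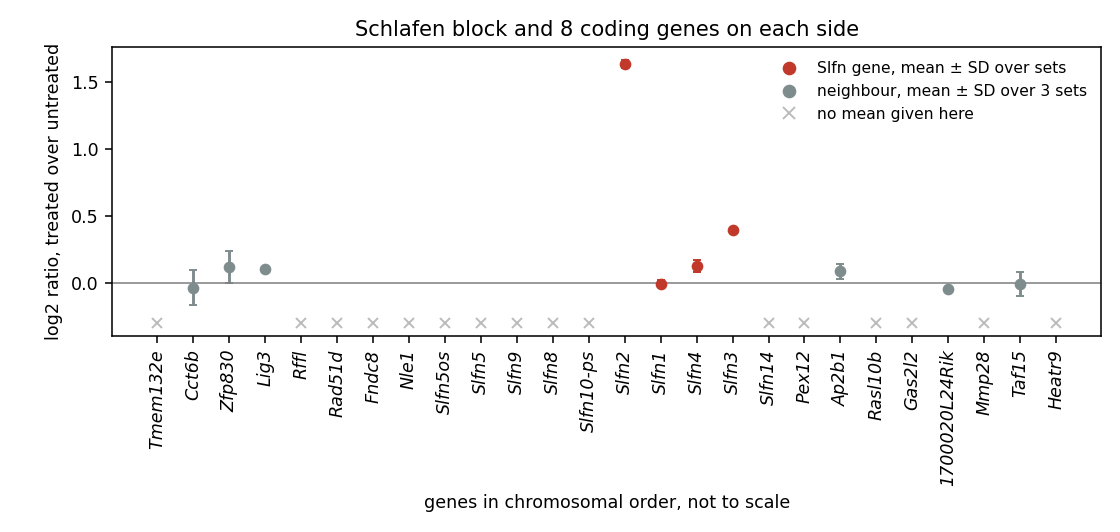
Mean log2 ratio ± SD over sets (vertical axis) for the Slfn genes (red, 3 sets, and 2 for Slfn1) and the 8 protein-coding genes on each side (grey, 3 sets), placed in chromosomal order and not to scale; crosses mark genes with no mean given here. Slfn2 at 1.63 stands beside Slfn1 at -0.0082, whose single arrays spread from -0.51 to 0.46. The 6 measured neighbours lie between -0.05 and 0.12.

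Genes with a ratio profile closest to Slfn2 were found by the root mean square difference over the 6 arrays, which mostly reflects a response of the same size. The nearest was 1700109H08Rik, a gene known only by its clone name, at 0.14 from Slfn2, with a mean of 1.55 ± 0.09 (SD, n = 3 sets). Next came Birc3, an inhibitor of cell death in the NF-kappaB pathway, at a difference of 0.17 and a mean of 1.71 ± 0.07. Tcim, a small regulator of transcription and immunity, followed at a difference of 0.17 and a mean of 1.53. Peli1, a ubiquitin ligase gene of Toll-like receptor signalling, differed by 0.20 with a mean of 1.49 over 3 probes, which themselves stood at 1.12, 1.31 and 2.04. Il10, the anti-inflammatory cytokine gene, differed by 0.20 with a mean of 1.82. Ppp1r15a, a phosphatase subunit gene that restores translation after stress, also differed by 0.20, with a mean of 1.65. Over single arrays Birc3 ran from 1.51 to 1.94, Ppp1r15a from 1.41 to 1.95 and Il10 from 1.68 to 1.90, against 1.49 to 1.73 for Slfn2.

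Lists of genes around the known roles of the family were then read in the same arrays, with the fit across all 8331 genes. Counts are of members past an adjusted p of 0.05, and the shares over all genes are those given above, 6.96% higher and 6.21% lower.

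Interferon-stimulated genes, a class that includes Slfn4 and many other Schlafen genes, moved both ways at 1 h. Of 43 tested members of 57 listed, 6 rose and 6 fell (14% in each direction), and the median ratio was -0.06 against -0.0092 over all genes. Ifit3, which encodes an antiviral RNA-binding protein, rose by 1.41 ± 0.23 (SD, n = 3 sets, limma, adjusted p = 0.000208), the mean of a probe at 2.90 and a probe at -0.08. The viperin gene Rsad2 rose by 0.74 ± 0.13. Ifih1, whose product senses double-stranded RNA, rose by 0.54 ± 0.18, a call lost when listed zeros were kept as ratios (adjusted p = 0.0737). Isg15, a ubiquitin-like modifier gene, rose by 0.56 ± 0.36 (adjusted p = 0.0389). That call was lost on the Cy5 or Cy3 arrays alone (adjusted p = 0.0645 and 0.0835), after quantile normalization (0.0803), with zeros kept (0.195) and with partly measured probes included (0.122). Stat2 fell by 0.48 and Pml by 0.17, with Irgm2, Trim21, Irgm1 and Rtp4 between them; these 6 are listed with their values known. With set 1, 2 or 3 left out, 1, 3 and 4 members fell, in fits where the share of all genes that fell was also lower, at 2.44%, 4.32% and 4.65%. As means over probes, every tested member of this list lay below the Slfn2 ratio of 1.63, although 1 of the 2 Ifit3 probes lay above it. Over all genes only 0.432% lay above Slfn2, which was chosen on this ratio, so this says little about the list. Slfn4 at 0.12 was above the list median and below the means of all 6 that rose. Those 6 were picked by a threshold that favours larger ratios, so the place of Slfn4 below them says little.

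Of the genes of interferon production and receptor signalling, 4 of 21 tested rose (19%) and 1 fell (4.76%), with a median of 0.05. Ifnb1, the interferon beta gene, rose by 3.00 ± 0.44 (limma, adjusted p = 0.000111), and the transcription factor gene Irf1 rose by 0.44 ± 0.06. Ikbke, a kinase gene upstream of interferon, rose by 0.71 ± 0.09 as the mean of probes at 1.32 and 0.11. Ifnar2, a subunit gene of the receptor for interferon beta, fell by 0.25 ± 0.02 (adjusted p = 0.0108), which was lost without set 1 (-0.26, adjusted p = 0.0777), on the Cy5 or Cy3 arrays alone (adjusted p = 0.051 and 0.129) and with zeros kept (0.0623).

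Transcription factors of the NF-kappaB and AP-1 families with NF-kappaB feedback genes moved upward nearly throughout. Of 18 tested members of 25 listed, 16 rose (88.9%) and 1 fell (5.56%), with a median of 0.83. Nfkbiz, an atypical regulator of NF-kappaB, rose by 3.72 ± 0.17 (limma, adjusted p = 3.54e-06), the mean of probes at 2.87 and 4.57. Traf1, a signalling adaptor gene, rose by 2.72 ± 0.23, Birc3 by 1.71 ± 0.07 and Tnfaip3, which restrains the pathway, by 1.70 ± 0.28. The Slfn2 ratio lay just under those of Birc3 and Tnfaip3 and above those of Fosl1 (1.54) and Relb (1.48), both of which rose. That ratio chose the family, and the list was chosen with results of these data known, so this place supports nothing further. The member that fell was Fos (-0.25 ± 0.04), not called without set 1, and the member not called was Batf (-0.0098). These 4 genes were named after their values were seen.

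Growth restraint and quiescence regulators, the theme of the family's name, held 6 of 28 that rose and 6 that fell (21.4% in each direction), with a median of -0.0077. Btg2, an antiproliferative gene, rose by 3.04 ± 0.20 (limma, adjusted p = 7e-06) and the cell cycle inhibitor gene Cdkn1a rose by 0.67 ± 0.09, over probes at 0.26, 0.91 and 0.84. Klf6 rose by 0.94 ± 0.11. The list also holds genes that drive rather than restrain growth, so its counts are not of restraint genes alone. Among these are Myc, the cyclin D genes Ccnd1, Ccnd2 and Ccnd3, and the kinase genes Cdk4 and Cdk6. Myc rose by 2.79 ± 0.18, and Ccnd1, named after its value was seen, fell (-0.21). Named after their values were seen, the quiescence factor gene Klf2 fell by 0.47 ± 0.23 and the cell cycle inhibitor gene Cdkn2d fell by 0.34 ± 0.07. The count that fell was 2 without set 1, 4 without set 2 and 2 without set 3, against the same lower shares of all genes as above.

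Genes of RNA and tRNA cleavage or protection lay close to 0. Of 11 tested members of 20 listed, 0 rose and 1 fell (9.09%). Over all genes 6.96% were called higher and 6.21% lower, so these counts say little. The median was -0.04, with ratios from -0.19 to 0.15. The member that fell was Ang, the angiogenin gene whose nuclease the Slfn2 protein opposes, at -0.19 ± 0.07 (limma, adjusted p = 0.0461). It was below 0 on 6 of 6 arrays, but its call held in no other fit except that with arrays centred on their medians (adjusted p = 0.0457), and was lost without set 1 (-0.15), set 2 (-0.21) or set 3 (-0.21). Eif2ak2, the RNA-activated kinase gene of translation control, was at -0.04 (adjusted p = 0.59) and was named after its value was seen.

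**Figure D5:**
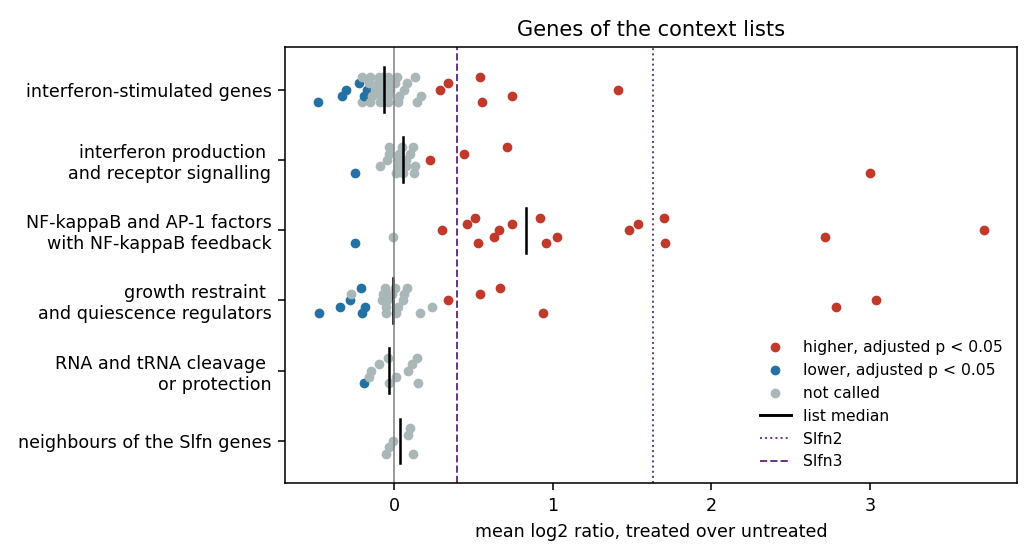
Mean log2 ratio over 3 sets (horizontal axis) of each tested gene in 5 context lists and among the block's neighbours, coloured by call, with the list median as a black bar and lines at Slfn2 (dotted) and Slfn3 (dashed). The NF-kappaB and AP-1 list has its median at 0.83 and 16 of 18 genes called higher, whereas the interferon-stimulated list has its median at -0.06 with 6 called each way.

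Of the macrophage markers, 11 of 12 were measured on all arrays; Adgre1 rose (0.55) and Fcgr3 fell (-0.21), and the other 9 ran from -0.11 to 0.19. Of the T cell, B cell and fibroblast or epithelial markers 5 of 9, 5 of 6 and 1 of 8 were measured on all arrays, with Cd4 (0.47) and Cd79a (0.20) the only ones called, both higher. Over all genes 6.96% were called higher and 6.21% lower, so these marker counts say little. Since the table has ratios and no levels, these values do not show which cells were present, and their part in the Slfn ratios was not tested. The 6 arrays ranged from 8.99% to 23.9% of probes listed at 0, with array medians between -0.0078 and 0.0159.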

How the data were processed

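RNA of treated and untreated RAW 264.7 cells was compared on 6 dual-channel arrays, 3 per dye orientation. The deposited values are log2 ratios, 1 for each of 16281 probes per array. Base 2 follows from the numbers themselves, 99.78% of which are log10 numbers of 6 digits over log10 of 2 when not 0 (relative tolerance 1e-13). Scanner, background correction and normalization are not given in the sources used here, so signal over background is unknown and the number of arrays limits the precision. Whether the ratio is Cy5 over Cy3 and how arrays were centred is likewise not stated.

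Ratios of Cy3 arrays were multiplied by -1, exact 0 was taken as missing, and both arrays of a set were averaged (n = 3 sets). Of the probes, 13738 have 1 symbol in the platform annotation, 52 have several and 2491 have none, and gene identifiers matched to RefSeq changed 0 symbols. The 11442 probes measured on all 6 arrays gave 8331 genes, as means of probes sharing a symbol, tested against 0 with limma 3.58.1 in R 4.3.3 (two-sided, 2 residual degrees of freedom, prior 4.08, Benjamini-Hochberg adjusted p under 0.05). The fit was tested on simulated data. Dye effects were tested alike on unturned probe averages.

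The members and lists were chosen with earlier results of these data known. The rule names each Slfn gene, the 6 genes nearest Slfn2, and per list up to 4 called members of largest absolute ratio (the 2 largest where none was called). Alternatives covered zeros, centring, quantile normalization, dye orientation, left-out sets, a set block and partly measured probes.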

Additional observations from a re-analysis of the deposited data

How the results depend on the processing

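Slfn2, Slfn3 and Slfn4 stayed above 0 under every alternative run. These ratios chose the family, so this is a description only. Keeping zeros could not change them, since these genes had no array listed at 0. On Cy5 arrays alone the ratios were 1.59 (Slfn2), 0.36 (Slfn3), 0.0218 (Slfn4) and 0.21 (Slfn1), and on Cy3 arrays alone 1.68, 0.43, 0.22 and -0.39. Each of these moved by more than the SD over sets, and Slfn1 changed sign. Quantile normalization put Slfn1 at -0.0557. Slfn2 ran from 1.62 to 1.65 with 1 set left out.

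Calls over all genes also became fewer in most of these fits, from 6.96% up and 6.21% down to 2.67% and 2.21% with zeros kept, 6.43% and 5.99% in Cy5 alone, 4.6% and 3.19% in Cy3 alone, and 3.53% and 2.77% with partly measured probes. Falls over all genes were 2.44% to 4.65% with a set left out, so the list counts that follow are to be read against these shares. The interferon-stimulated count was 2 up and 1 down with zeros kept as ratios and 2 down in Cy3 alone, with 1 to 4 down when a set was left out. For interferon production the 1 fall became 0 with zeros kept, in Cy3 alone and without set 1 (range 0 to 1). The 1 fall of the NF-kappaB and AP-1 list became 0 in Cy3 alone and without set 1 (range 0 to 1). Falls among growth regulators numbered 1 with zeros kept, 3 in Cy5 alone, 1 in Cy3 alone, 1 with partly measured probes and 2 to 4 with a set left out. The fall in the RNA and tRNA list was absent (0) with zeros kept, quantile normalization, either orientation alone, any set left out and partly measured probes. Among neighbours, 1 rose with zeros kept. Fits without a set have fewer degrees of freedom; other causes were not tested.

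Same-numbered arrays correlated at r = 0.00556, -0.258 and -0.0636 in their deviations, so the numbers did not pair them. With 6 arrays and a dye term, 2 RNA and tRNA genes rose both with and without the set number as a replicate block, and 716 genes rose and 624 fell with it, against 758 and 681 without it and 580 and 517 for set averages. With set 1 left out, 296 rose and 203 fell.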
